A study of Mus musculus with 25 samples.

Results

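The Tcl1 cluster is a group of 6 genes, Tcl1 and its 5 relatives Tcl1b1, Tcl1b2, Tcl1b3, Tcl1b4 and Tcl1b5, that lie side by side on mouse chromosome 12. They were taken by gene symbol from expression tables of 24708 gene loci (24257 symbols), and each of the 6 symbols had 1 locus. The tables cover 11 of the 25 samples of a study of embryos made by in vitro fertilisation (IVF) and of Fzr1, which encodes an activator of the anaphase-promoting complex. All 11 were RNA libraries of mouse embryos of the BDF1 strain. The 2-cell embryos were from embryonic day 1.5 and carried the labels WT, sIVF and IVF, with 2 libraries each, and the meaning of sIVF is not spelled out in the labels. The blastocysts were from embryonic day 4.0, with 3 libraries labelled Fzr1-OE and 2 labelled Control. The sources used here give neither how Fzr1 was raised in the Fzr1-OE embryos nor how many embryos went into a library. Polyadenylated RNA was reverse transcribed in embryo lysates and the cDNA was amplified before sequencing.

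TCL1 proteins have no enzyme activity of their own. They bind the pleckstrin homology domain of the AKT kinases and increase AKT activation, which promotes growth and survival. In humans and mice TCL1 drives tumours of lymphocytes when it is expressed there by mistake, whereas the mouse genes are normally expressed in the oocyte and early embryo. Mouse embryonic stem cells also express Tcl1, downstream of the transcription factors Pou5f1 (Oct4) and Esrrb.

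In the coordinates of the deposited tables (build mm9), the cluster covers 75.7 kb, from Tcl1b2 (chr12:106385243-106393435) through Tcl1b1 (chr12:106397914-106404835), Tcl1b5 (chr12:106414568-106419355), Tcl1b3 (chr12:106429255-106433609) and Tcl1b4 (chr12:106440632-106445203) to Tcl1 (chr12:106454965-106460947). The tables list 0 other loci inside it. In RefSeq the 5 Tcl1b genes are read from the plus strand and Tcl1 from the minus strand, so that Tcl1 is read towards its relatives. Exons and introns within these spans were not analysed here.

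Because the Tcl1b genes are close copies that were all listed at 0 in blastocysts, the 100 bases before each RefSeq start are shown (build GRCm38.p6, 5′ to 3′ on the gene's own strand). Capitals in the Tcl1b genes mark a 22-base and a 25-base run that all 5 share letter for letter, and capitals in Tcl1 mark the first 8 bases of the 22-base run, the longest stretch of it that Tcl1 holds too.
Tcl1 (chr12:105222738-105222837, minus strand): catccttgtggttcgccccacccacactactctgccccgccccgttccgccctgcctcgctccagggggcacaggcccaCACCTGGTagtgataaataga
Tcl1b1 (chr12:105159604-105159703, plus strand): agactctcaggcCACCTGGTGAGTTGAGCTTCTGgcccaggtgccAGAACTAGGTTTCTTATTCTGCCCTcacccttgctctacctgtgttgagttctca
Tcl1b2 (chr12:105146919-105147018, plus strand): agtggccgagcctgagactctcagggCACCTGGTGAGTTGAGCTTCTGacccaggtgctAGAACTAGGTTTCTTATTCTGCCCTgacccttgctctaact
Tcl1b3 (chr12:105190945-105191044, plus strand): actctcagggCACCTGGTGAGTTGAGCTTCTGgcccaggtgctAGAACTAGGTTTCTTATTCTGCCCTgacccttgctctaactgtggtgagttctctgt
Tcl1b4 (chr12:105202295-105202394, plus strand): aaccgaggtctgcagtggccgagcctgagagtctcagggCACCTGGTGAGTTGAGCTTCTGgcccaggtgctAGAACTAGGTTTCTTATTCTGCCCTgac
Tcl1b5 (chr12:105176244-105176343, plus strand): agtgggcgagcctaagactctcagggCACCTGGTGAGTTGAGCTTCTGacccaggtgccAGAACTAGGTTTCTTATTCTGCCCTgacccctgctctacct

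The RefSeq windows compared ran from 250 bases before to 50 bases after the start, and all 6 genes had one. Over the 10 pairs of Tcl1b genes the windows were 80.9% to 98.6% identical across 157 to 300 aligned columns, with Tcl1b2 and Tcl1b4 the closest pair. Tcl1 aligned with any Tcl1b window over only 9 to 36 columns. Each of the 2 runs in capitals was found in 5 of 32851 promoter windows, those of the Tcl1b genes. The 8-base run CACCTGGT, which contains the E-box CACCTG, was in 1.03% of all windows on either strand. It lies 21 bases before the start of Tcl1 and 61 to 90 bases before the starts of the Tcl1b genes. A second 8-base run found in all 6 windows, CTAGGTTT, was in 0.898% of all windows. It is part of the 25-base run of the Tcl1b genes, 24 to 53 bases before their starts, and lies 176 bases before that of Tcl1, outside the stretch shown.

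An E-box is the site read by basic helix-loop-helix factors, among them the oocyte factor Figla. Searched on both strands, CACCTG occurred 1 time in the Tcl1 window and 2 times in each Tcl1b window, against 20.2% of all windows with at least 1 copy. The wider form CANNTG, of which CACCTG is 1 case, was in 72.3% of all windows. The TATA box TATAAA (13.6% of windows), the homeobox motifs TAATTG (8.0%) and TAATTA (5.29%), and the octamer ATGCAAAT read by Pou5f1 (1.74%) had 0 copies in all 6 windows. Tcl1 had 11 CpG dinucleotides in its window, against a median of 7 over all windows, and the Tcl1b genes had 2 to 6.

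The values are FPKM, a number of sequenced fragments scaled for transcript length and for library size. From the width of the deposited bounds, the depth came to between 4742698 and 6377606 fragments in the 2-cell libraries and between 9324167 and 10483442 in the blastocyst libraries. Of the 18 oocyte genes checked, 1 (Figla) was listed at 0 in all 2-cell libraries. Their summed level was 3630 to 7101 FPKM there and 1102 to 1230 FPKM in blastocysts, but each sum rests mainly on 1 gene. Omt2a had 3400 to 6812 FPKM in 2-cell libraries and 0.0580 to 1.53 FPKM in blastocysts, while Khdc3 had 0 to 5.20 FPKM and 1059 to 1175 FPKM, the opposite order. The 9 lymphocyte genes summed to 1.33 to 11.7 FPKM in 2-cell libraries, with 5 of them, Ptprc (the pan-leukocyte antigen CD45) included, at 0 in all 6. Ms4a1 was above 0 in all 6, at 0.612 to 6.50 FPKM, and Lck had 0 to 9.98 FPKM. The 12 cumulus and granulosa genes summed to at most 3.92 FPKM with 8 at 0 in all 6, and the 8 sperm genes to 3.0 to 17.6 FPKM with 3 at 0 in all 6. Nothing in the labels says that replicates were separate collections of embryos, so p-values measure only the spread between these libraries, which may be technical.

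In 2-cell embryos all 6 genes were detected in all 6 libraries, and Tcl1 was the highest of them each time. Tcl1 stood at 214 and 129 FPKM in the WT libraries, at 261 and 243 FPKM in sIVF, and at 368 and 158 FPKM in IVF. These levels lie above those of 98.2% to 99.4% of all loci, and the sIVF libraries agree closely while the IVF libraries stand on both sides of them. The deposited bounds of a Tcl1 level imply 1297 to 2009 fragments. Counting error read from them is small beside the 2.34-fold gap in FPKM between the IVF libraries. The implied Tcl1 fragments differ less, at 2009 in IVF replicate 1 and 1459 in replicate 2. The depths of these libraries came to 6377606 and 5146026 fragments. Why the gap is wider in FPKM than in implied fragments was not tested.

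Tcl1b1 was the second gene of the cluster in all 6 libraries. Its levels were 46.4 and 68.7 FPKM in WT, 83.9 and 91.1 FPKM in sIVF, and 111 and 60.3 FPKM in IVF. Tcl1b3 measured 29.1 and 47.0 FPKM in WT, 35.1 and 55.8 FPKM in sIVF, and 72.0 and 44.8 FPKM in IVF. It held the third place in 5 of the 6 libraries, and all of its groups overlap.

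Tcl1b2, whose promoter window is nearly that of Tcl1b4, had 10.9 and 15.7 FPKM in WT, 49.0 and 43.1 FPKM in sIVF, and 25.6 and 35.2 FPKM in IVF. Its 3 groups do not overlap, with WT lowest and sIVF highest. Tcl1b4 had 10.1 and 2.79 FPKM in WT, 22.2 and 18.1 FPKM in sIVF, and 31.3 and 4.15 FPKM in IVF. The IVF libraries of Tcl1b4 differ 7.54-fold and enclose both sIVF values. Tcl1b5 had 9.19 and 5.42 FPKM in WT, 15.5 and 23.2 FPKM in sIVF, and 9.04 and 3.39 FPKM in IVF, so that both sIVF libraries are above all others.

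**Figure D1:**
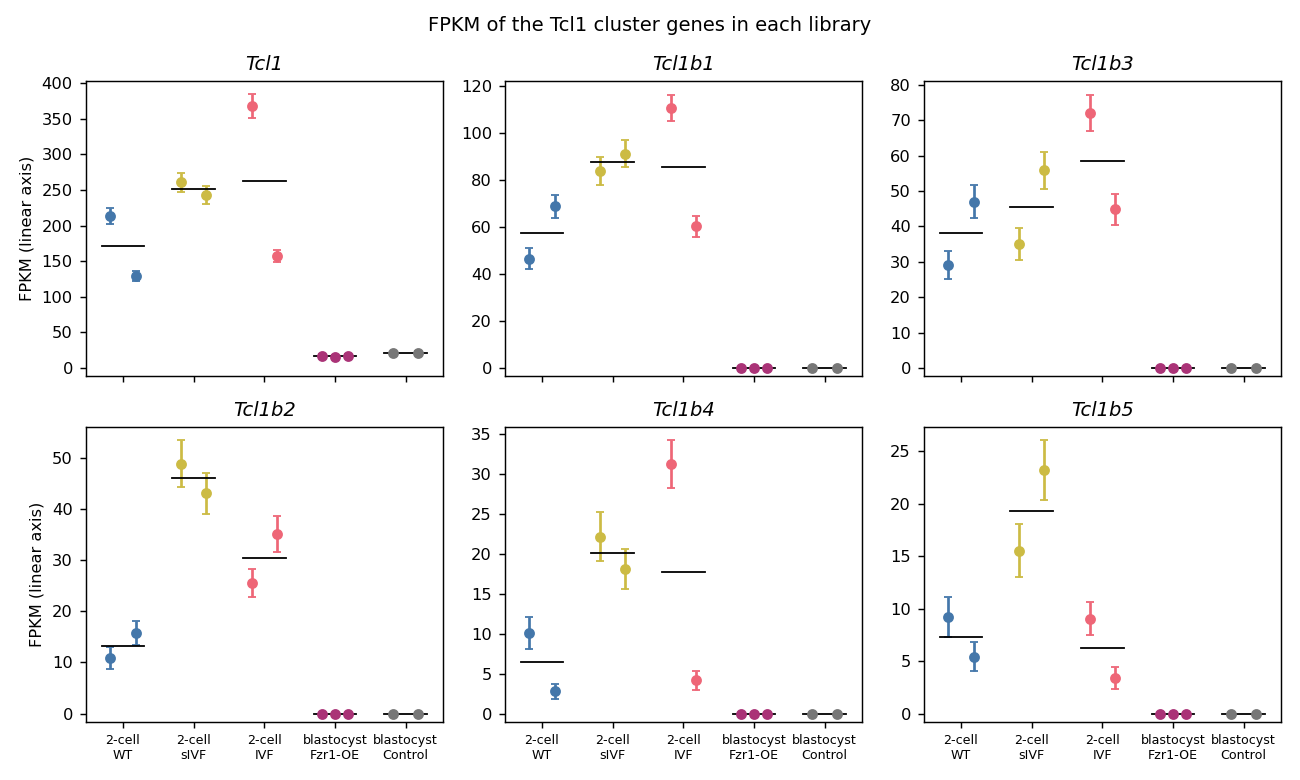
Each panel shows 1 gene of the cluster, with FPKM on a linear axis that differs between panels. Points are libraries by group, error bars are the deposited confidence bounds and black lines are group means. Tcl1 drops from 129 to 368 FPKM in 2-cell libraries to 15.9 to 21.0 FPKM in blastocysts, and the Tcl1b genes are at 0 in all 5 blastocyst libraries.

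By median over the 6 libraries the order was Tcl1 (229 FPKM), Tcl1b1 (76.3 FPKM), Tcl1b3 (45.9 FPKM), Tcl1b2 (30.4 FPKM), Tcl1b4 (14.1 FPKM) and Tcl1b5 (9.12 FPKM). Tcl1 exceeded Tcl1b1 by 1.88-fold to 4.61-fold, in 6 of 6 libraries, and their ranges do not overlap. Tcl1b1 exceeded Tcl1b3 in 6 of 6 libraries by 1.35-fold to 2.39-fold, with ranges that overlap between libraries. Tcl1b3 was above Tcl1b2 and Tcl1b2 above Tcl1b4 in 5 of 6 libraries, and Tcl1b4 was above Tcl1b5 in 4 of 6. The ranges of neighbours in the lower part of the order overlap between libraries, and differences between them were not tested. Reads from close copies may be assigned to the wrong copy. Only promoter windows were compared here, so how alike the Tcl1b transcripts are was not measured. How the authors' counting treated such reads is not given in the sources used here, so the split among the 5 Tcl1b genes is uncertain.

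Tcl1 held 48.1% to 66.9% of the FPKM summed over the cluster. The sum was 320 and 269 FPKM in WT, 466 and 474 FPKM in sIVF, and 617 and 305 FPKM in IVF. The 5 Tcl1b genes together reached 106 to 248 FPKM, so that Tcl1 alone was 0.926 to 2.02 times their sum. Both sIVF sums are above both WT sums, and the IVF sums overlap WT.

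**Figure D2:**
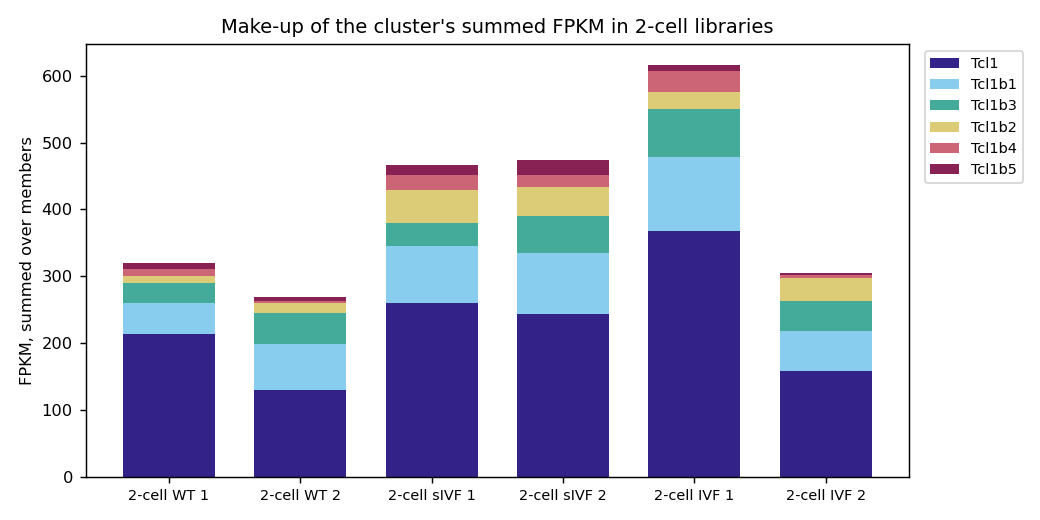
Stacked bars give the FPKM of the 6 genes in each 2-cell library, from an axis that starts at 0. Tcl1 makes up 48.1% to 66.9% of each bar, and the bars run from 269 FPKM (WT replicate 2) to 617 FPKM (IVF replicate 1).

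In FPKM, libraries of 1 group often differed by more than the counting error read from the deposited bounds. In 14 of 18 pairs of same-group 2-cell libraries (6 genes in 3 groups) the deposited bounds did not meet. The 4 pairs that did were all in sIVF. In IVF, replicate 1 was above replicate 2 for 5 of the 6 genes, Tcl1b2 being the exception. For Tcl1b4 the bounds reached from 28.3 FPKM upwards in IVF replicate 1 and up to 5.33 FPKM in replicate 2.

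The comparison of IVF with WT asks whether fertilisation in vitro changed the cluster at the 2-cell stage. On average 5 of the 6 genes were higher in IVF, but 0 of 6 passed limma's test on log2(FPKM + 1) at a Benjamini-Hochberg adjusted p of 0.05. The background was 0.0121% of 8246 loci, which is 1 locus, and at an unadjusted p of 0.05 it was 12.4% of loci (1024) against 1 of the 6 genes. That gene was Tcl1b2, with a mean of 30.4 FPKM in IVF and 13.3 FPKM in WT, which is a difference of 1.14 ± 0.35 (SE, 2 libraries per group) in log2 units with a limma adjusted p of 0.245 (unadjusted 0.0109). Tcl1 differed by 0.53 on the log2 scale, with a 95% interval from −0.36 to 1.42 and a limma adjusted p of 0.644. The median over the 6 genes was 0.57 and over all loci 0.09.

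The other 4 were Tcl1b1 at a log2 fold change of 0.52, Tcl1b3 at 0.61, Tcl1b4 at 0.99 and Tcl1b5 at −0.29, with limma adjusted p from 0.599 to 0.896. Only Tcl1b2 had groups that do not overlap, higher in IVF, which 22.8% of all loci also show. Without IVF replicate 1 the differences turned to −0.078 for Tcl1 and −0.33 for Tcl1b4, so their direction rests on that library. Genes of the 2-cell stage list had a lower median in IVF, at a log2 fold change of −1.11 over 6 tested genes. Of these genes 0 passed limma's test, with 2 at an unadjusted p of 0.05 (smallest adjusted p 0.353, Zscan4f). Their part in the values of the cluster was not tested.

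Between sIVF and WT, all 6 genes had higher means in sIVF and 5 of 6, all but Tcl1b3, had groups that do not overlap. The background for higher groups that do not overlap was 20.6% of loci. limma's test passed 0 of the 6 genes and 0% of the 8246 loci, while at an unadjusted p of 0.05 it took 7.09% of loci (585) and 2 of the 6 genes. The 2 were Tcl1b2, with 46.0 FPKM in sIVF against 13.3 FPKM in WT (log2 fold change 1.73 ± 0.35 SE, limma adjusted p 0.466, unadjusted 9.65e-04), and Tcl1b5, with 19.3 against 7.31 FPKM (log2 fold change 1.30 ± 0.56 SE, limma adjusted p 0.691, unadjusted 0.0464). Tcl1 differed by 0.59, with a 95% interval from −0.30 to 1.48. Tcl1b4 differed by 1.70, Tcl1b1 by 0.62 and Tcl1b3 by 0.25, with limma adjusted p from 0.741 to 0.912. The median was 0.96 over the 6 genes and 0.06 over all loci.

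This comparison shares its WT libraries with that of IVF, and both share libraries with the next. Between sIVF and IVF limma again passed 0 of the 6 genes, against 0% of loci, with 11.8% of loci (974) and 1 of the 6 genes at an unadjusted p of 0.05. Tcl1b5 was that gene, at 19.3 FPKM in sIVF and 6.22 FPKM in IVF (log2 fold change 1.59 ± 0.56 SE, limma adjusted p 0.308, unadjusted 0.0207). Tcl1b2 and Tcl1b5 were the 2 genes whose sIVF libraries were both above both IVF libraries, which held for 21.7% of loci. Tcl1 differed by 0.06, with a 95% interval from −0.83 to 0.95, although its mean FPKM was lower in sIVF (252) than in IVF (263), because the log scale gives the higher of the uneven IVF libraries less weight. Tcl1b1 differed by 0.10, Tcl1b2 by 0.60, Tcl1b3 by −0.35 and Tcl1b4 by 0.71, and the median of the 6 was 0.35 against −0.02 over all loci. The 6 tested genes of the 2-cell stage list had a median of 0.94 here, with 0 passing and 2 at an unadjusted p of 0.05 (smallest limma adjusted p 0.283, Zscan4d), and a median of −0.42 between sIVF and WT, with 0 at either threshold. Their part in these values was not tested either.

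**Figure D3:**
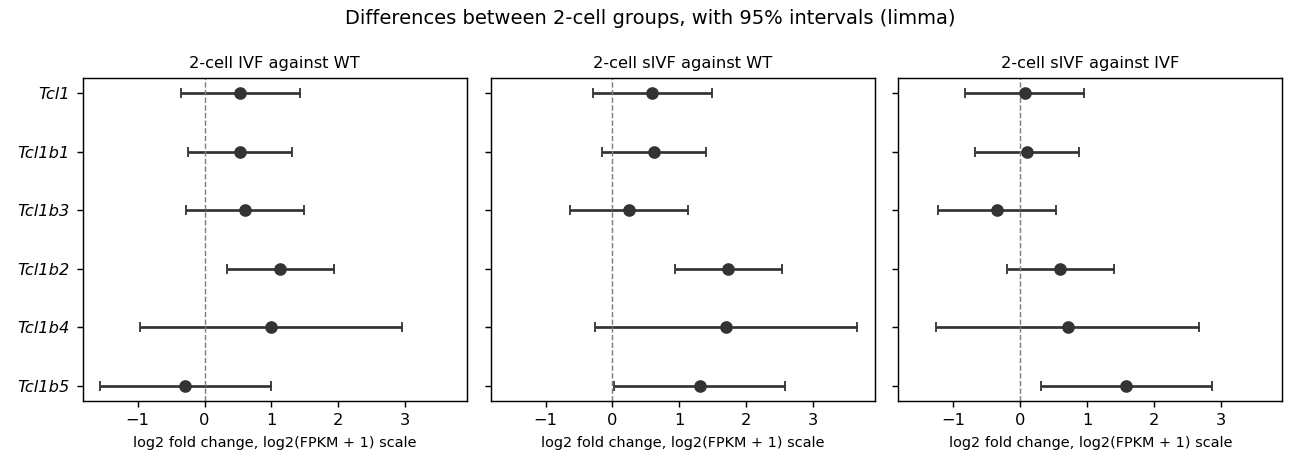
Points are limma log2 fold changes of log2(FPKM + 1) for the 6 genes in the 3 comparisons of 2-cell groups, bars are 95% intervals without adjustment for the number of loci, and the dashed line marks 0. Only the bars of Tcl1b2 (IVF and sIVF against WT) and Tcl1b5 (sIVF against WT and against IVF) clear 0, and none passed the adjusted threshold.

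The cluster also differed between stages. Tcl1 had 20.7 and 21.0 FPKM in the Control blastocysts against 17.3, 15.9 and 17.5 FPKM in the Fzr1-OE blastocysts, above 85.8% to 87.8% of loci, while Tcl1b1 to Tcl1b5 were listed at 0 in all 5 blastocyst libraries. No blastocyst library overlaps any 2-cell library for any of the 6 genes. For the 5 Tcl1b genes this follows from their values of 0 and from a filter they passed only through 2-cell libraries. The share of all loci with such a separation was not determined, so it is given as a description. Values of 0 in such tables can be failed estimates. Of 14 housekeeping genes 0 were at 0 in any blastocyst library, but this check cannot tell whether the estimates of close copies such as the Tcl1b genes failed. Of 4489 loci with a WT mean of at least 5 FPKM, 80 (1.78%) were listed at 0 in all 5 blastocyst libraries.

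Set against 2-cell WT in a limma fit of all 11 libraries, Tcl1 fell in Control blastocysts, where 19.6% of 9762 loci were called lower (1909), 45.8% higher (4472) and 65.4% in either direction (6381). Its mean was 172 ± 59.9 FPKM (SD, n = 2) in WT and 20.9 ± 0.25 FPKM (SD, n = 2) in Control, a difference of −2.94 ± 0.36 (SE) in log2 units with a limma adjusted p of 1.26e-04. The Tcl1b genes, with WT means of 57.6, 13.3, 38.0, 6.45 and 7.31 FPKM (Tcl1b1 to Tcl1b5), passed the filter of a mean of 1 FPKM only through the 2-cell libraries, so the direction of any test on them was fixed by that filter, and their levels are given as a description. The median log2 fold change over all loci was 0.88 in this comparison, and −0.02 after quantile normalization and 0.38 after upper-quartile scaling, under which Tcl1 came to −3.78 and −3.57.

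Stage, experiment and depth cannot be told apart between these libraries, and in bulk samples fewer cells expressing a gene and less RNA per cell cannot be told apart either.

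The comparison of Fzr1-OE with Control blastocysts asks whether raised Fzr1 changed gene expression at day 4.0. Fzr1 itself was not higher in the libraries labelled Fzr1-OE, at 12.7, 15.5 and 17.1 FPKM against 16.5 and 16.5 FPKM in Control (log2 fold change −0.13 ± 0.16 SE, limma adjusted p 0.713). Of the cluster, Tcl1 alone could be tested. Its Fzr1-OE libraries, at 15.9 to 17.5 FPKM, are all below the Control libraries, a separation that 18.4% of loci show in this direction. The log2 fold change was −0.29 ± 0.13 (SE, 95% interval −0.59 to 0.01), and the limma adjusted p of 0.271 (unadjusted 0.0576) left Tcl1 outside the 4.21% of 9439 loci (397) that passed.

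Marker genes also differed between these groups. Of 11 trophectoderm genes 6 fell, the keratins Krt18 and Krt8 and the placental gene Plac1 leading, against 181 of 9439 loci called lower. The list median was −0.69, beside 0.005 over all loci. Of 9 epiblast genes 0 passed (smallest limma adjusted p 0.116, with 1 at an unadjusted p of 0.05). Of 6 tested primitive endoderm genes 1 rose (Gata6, the lineage's specifier), against 216 of 9439 loci called higher. Lama1 of that list was lower, with groups that do not overlap (log2 fold change −0.71, limma adjusted p 0.166, unadjusted 0.0208), and the list median was −0.11. Both tested genes of the 2-cell stage list were higher. Gm4340 had 2.77 to 3.19 FPKM against 0.0570 and 0.211 FPKM, and Zfp352 had 2.15 to 3.64 FPKM and was listed at 0 in Control, so these 2 passed the filter only through the Fzr1-OE libraries. Their part in the Tcl1 values was not tested.

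The genes around the cluster moved in both directions between stages. Of 16 loci within 500 kb of it, 6 were tested, and 3 of these had a stage difference that passed, against 65.4% of all tested loci. Snhg10, a small nucleolar RNA host gene 115 kb away, fell from 21.7 to 64.4 FPKM over the 2-cell libraries to 0.626 to 3.0 FPKM in blastocysts (Control against WT, log2 fold change −4.71, limma adjusted p 5.12e-06). Glrx5, a mitochondrial glutaredoxin of iron-sulfur cluster assembly 106 kb away, rose from 2.72 to 30.8 FPKM to 97.2 to 121 FPKM (3.19, adjusted p 1.50e-04). These 2 genes are neighbours of each other and moved in opposite directions.

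Dicer1, the microRNA-processing enzyme 395 kb away, fell from 4.18 to 8.33 FPKM to 1.37 to 2.03 FPKM (log2 fold change −1.16, limma adjusted p 0.0121). That call was lost without WT replicate 1 (adjusted p 0.0543), Control replicate 1 (0.0608) or Control replicate 2 (0.0535). Of the rest, Atg2b, Gskip and Ak7 were tested and did not pass, at −0.50, 1.63 and 0.27. The other 10 were low, with no library above 3.44 FPKM. Within a stage 6 of these loci were tested in each 2-cell comparison and 7 in blastocysts, and 0 passed limma's test. At an unadjusted p of 0.05 there were 2 between IVF and WT (12.4% of all loci) and 2 between sIVF and IVF (11.8%). There were 0 between sIVF and WT (7.09%) and 0 in blastocysts (19.7%).

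**Figure D4:**
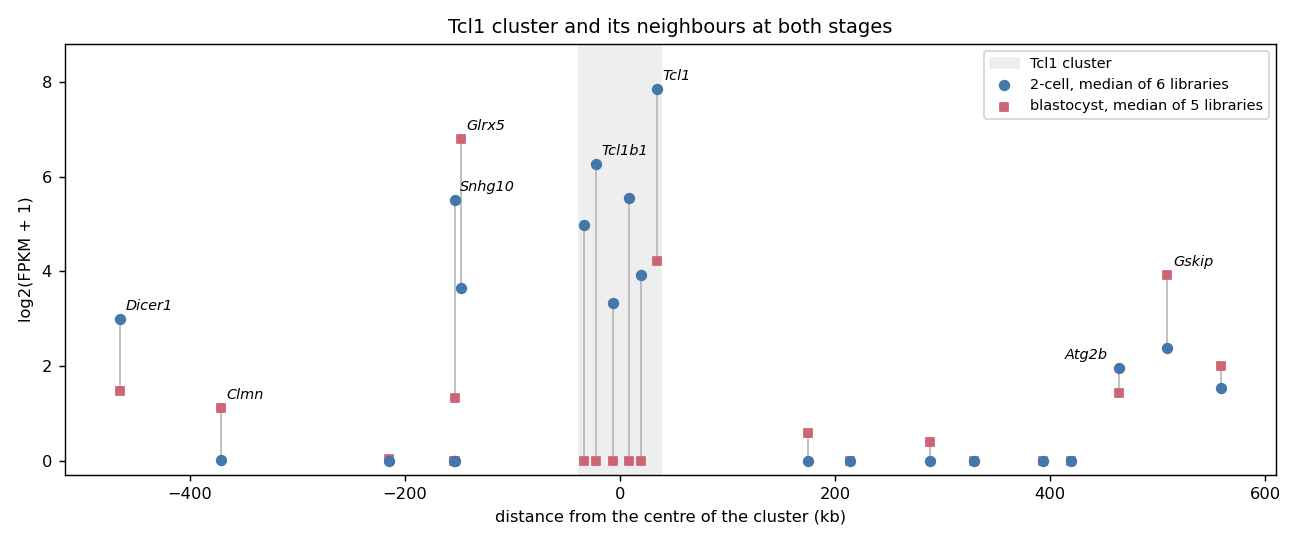
The horizontal axis is the distance of each locus's midpoint from the centre of the cluster in kb, and the vertical axis is log2(FPKM + 1). Circles are medians of 6 2-cell libraries, squares medians of 5 blastocyst libraries, grey lines join both values of a locus, and the grey band is the cluster. All 6 cluster genes lie higher at the 2-cell stage, while Glrx5 is lower and Snhg10 higher there.

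The genes whose profiles were most like that of the cluster were found by the root-mean-square difference of log2(FPKM + 1) over the 11 libraries, each profile centred on its own mean, against the mean of the 6 cluster genes, among 9762 loci. The nearest named genes were Parp12 (an ADP-ribosyltransferase, 0.249), Fbxw15 (an F-box protein, 0.262), Obox1 (an oocyte homeobox gene, 0.288), Bmp15 (an oocyte growth factor, 0.314), Pcgf1 (a Polycomb subunit, 0.327), Spry4 (an inhibitor of receptor tyrosine kinase signalling, 0.328), Nlrp9c (0.329) and Oosp3 (an oocyte-secreted protein, 0.399). Bmp15, for example, had 10.3 to 29.6 FPKM in 2-cell libraries and at most 0.0894 FPKM in blastocysts. The measure depends on the pseudocount, since only 3 of the 8 were named again with a pseudocount of 0.1. Among all loci Tcl1b2 ranked 19 and Tcl1 55 by this measure, and Tcl1b1 239, although each is part of the mean profile.

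Of the oocyte list, 13 genes were tested between Control blastocysts and 2-cell WT. Omt2a, Oog1 and Oosp1 were first among those lower, and 2 rose, Khdc3 and Ooep of the subcortical maternal complex. Every oocyte gene called lower had a Control mean of at most 0.343 FPKM and entered the test only through the 2-cell libraries. This fixed their direction, so no count of the falls is given. The same holds for the 2-cell stage list, of which Zscan4c, Zscan4d and Zscan4f had 2.31 to 20.7 FPKM over the 2-cell libraries and were listed at 0 in all blastocyst libraries, and it gets no count here. Within 2-cell embryos, 0 of 15 tested oocyte genes passed limma's test in any of the 3 comparisons, with 2 at an unadjusted p of 0.05 for IVF against WT, 3 where sIVF was set against WT and 4 where it was set against IVF. The smallest limma adjusted p was 0.0692, for Omt2a between sIVF and IVF.

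Of the transcription factors of embryonic stem cells listed as regulators of Tcl1, some were higher in blastocysts. Pou5f1 was listed at 0 in 5 of the 6 2-cell libraries and at 0.120 FPKM in the other, and had 14.9 to 25.8 FPKM in blastocysts. Of the 7 factors listed 4 rose in Control blastocysts against WT, a share near the 45.8% of all loci called higher, with Pou5f1, Nanog and Sox2 first. The list median was 1.10 beside 0.88 over all loci. Pou5f1 and Sox2 (0 to 0.353 FPKM at the 2-cell stage) passed the filter of a mean of 1 FPKM only through the blastocyst libraries. That fixed their direction, so their levels and the count are given as a description. Klf2, Klf4 and Esrrb did not pass. Esrrb stayed low, at 0 to 2.07 FPKM at the 2-cell stage and 0.639 to 1.70 FPKM in blastocysts (limma adjusted p 0.896). Between Fzr1-OE and Control, Pou5f1 had means of 21.4 and 16.2 FPKM (limma adjusted p 0.269), and 0 of the 7 passed limma's test, adjusted or at an unadjusted p of 0.05. In the 2-cell comparisons 0 of 4 tested factors passed either way.

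Akt1 and Akt2 encode AKT kinases, partners of the TCL1 proteins. Akt1 was below its blastocyst levels in all 2-cell libraries. Akt2 was below its blastocyst levels in WT and sIVF, while its IVF levels lie within the blastocyst range. Akt1, the most widely expressed form, had 0.911 and 0.308 FPKM in WT, 2.27 and 3.41 FPKM in sIVF, and 5.32 and 2.64 FPKM in IVF. Akt2, the form best known from insulin signalling, had 4.78 and 0.777 FPKM in WT, 1.52 and 0.544 FPKM in sIVF, and 8.73 and 7.77 FPKM in IVF. In each case both IVF libraries are above both WT libraries, but the limma adjusted p were 0.387 for Akt1 and 0.458 for Akt2.

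In blastocysts Akt1 reached 10.3, 13.4 and 11.1 FPKM in the Fzr1-OE libraries and 9.35 and 12.7 FPKM in Control, and rose against 2-cell WT (log2 fold change 2.91 ± 0.36 SE, limma adjusted p 1.23e-04). Akt2 had 8.56, 9.21 and 7.54 FPKM in Fzr1-OE and 7.91 and 10.7 FPKM in Control (1.67 ± 0.51 SE, limma adjusted p 0.0167). This call of Akt2 was lost after quantile normalization (adjusted p 0.172) and upper-quartile scaling (0.0872), in a fit of the compared libraries alone (0.105), and without WT replicate 2 (0.0829) or Control replicate 2 (0.0962).

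The TCL1-family gene Mtcp1, which lies elsewhere in the genome, was below 0.001 FPKM in all 6 2-cell libraries and at 0.489 to 2.26 FPKM in blastocysts.

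Over a list of 29 AKT pathway genes, 21 were tested between Control blastocysts and WT, of which 10 rose and 3 fell, shares near those of all loci (45.8% higher, 19.6% lower). Akt1s1, which encodes the mTORC1 inhibitor PRAS40, and Foxo3, a transcription factor that AKT inactivates, led the rises with Akt1. The falls were Rictor, a subunit of mTORC2, and Pik3ca and Pik3cb, catalytic subunits of PI3-kinase. Akt1s1, Foxo3 and some other risers passed the filter of a mean of 1 FPKM only through the blastocyst libraries, and Rictor only through the 2-cell libraries. The filter fixed the direction of these genes, so the counts are given as a description. The list median of 0.80 stands beside 0.88 over all loci. In the 2-cell comparisons 14 genes were tested and 0 passed limma's test, with 3, 0 and 2 of them at an unadjusted p of 0.05 (IVF against WT, sIVF against WT, sIVF against IVF). The smallest adjusted p were 0.184 for Rheb, the GTPase that activates mTORC1, between IVF and WT, 0.740 for Foxo1 between sIVF and WT, and 0.141 for Rheb between sIVF and IVF. The list medians were 0.18, 0.08 and −0.05.

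Between Fzr1-OE and Control blastocysts 1 of 21 tested genes of the list passed, against 4.21% of all loci. This was Foxo3, at 7.03, 8.29 and 7.68 FPKM in Fzr1-OE against 3.19 and 3.85 FPKM in Control, with no overlap. Its log2 fold change was 0.94 ± 0.20 (SE, limma adjusted p 0.0322), and the call was lost in 8 of 12 alternatives, with adjusted p from 0.0270 to 0.186. These included leaving out any of the 5 libraries, where the fold change stayed between 0.84 and 1.05.

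**Figure D5:**
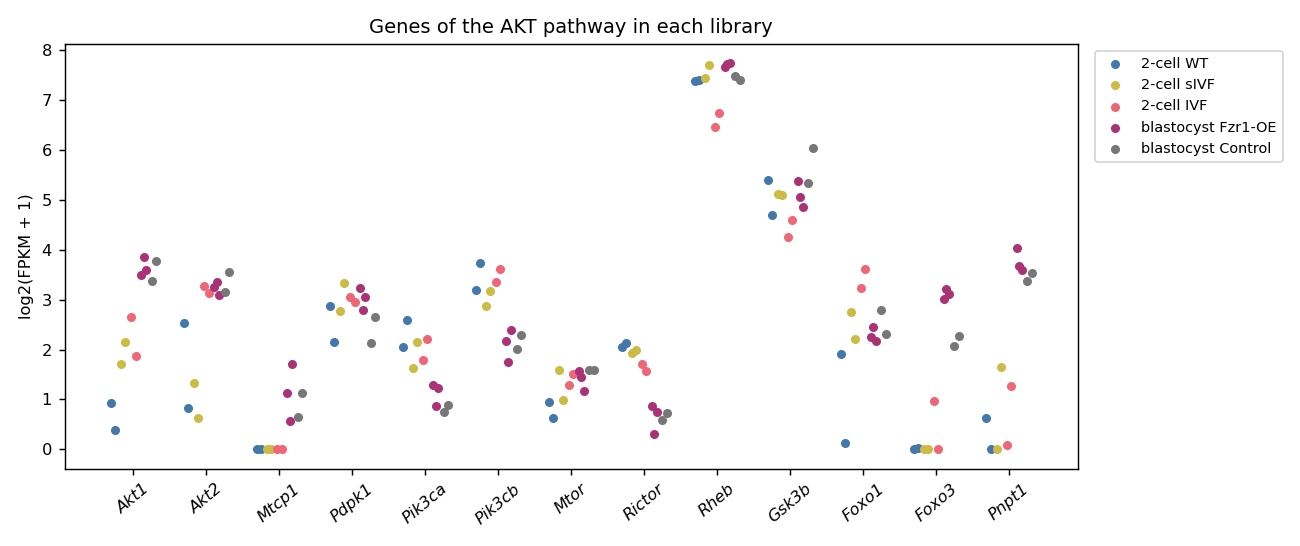
Points are log2(FPKM + 1) of 13 genes of the AKT pathway list in each of the 11 libraries, coloured by group. Akt1 lies at 0.308 to 5.32 FPKM in 2-cell libraries and at 9.35 to 13.4 FPKM in blastocysts.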

How the data were processed

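Per the file headers, the authors deposited an FPKM value for each gene locus together with its confidence bounds. HISAT2 2.1.0 and Cufflinks 2.2.1 are among the tools in the submitters' processing notes, which assign no roles and give mm9 as the build. Locus starts were moved to count from 1. Groups came from sample titles. Fat, bisulfite and H3K9me3 samples were not analysed here.

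Depth and fragments per gene were estimated from the bounds, set equal to 2 SD of Poisson counting, and cover counting error only. limma 3.58.1 in R 4.3.3 (eBayes, intensity trend) was run on log2(FPKM + 1) for loci whose mean reached 1 FPKM, with p-values adjusted over all of them by Benjamini-Hochberg at 0.05. Fold changes on this scale understate changes of low genes. The 6 2-cell libraries shared a fit, the 5 blastocyst libraries had their own, and the stage comparison used all 11. The 24708 loci, 9762 of them in the last fit, were read in Python 3.11.15 with pandas 2.3.3 and numpy 2.4.6.

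The settings varied were the pseudocount (0.1), the filter (none, or 5 FPKM), the scaling (quantile, upper-quartile), the trend (none), a replicate block, the libraries in the fit (those compared alone) and the removal of each library. The steps were tested on simulated data.

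The members and gene lists (AKT pathway, regulators of Tcl1, oocyte, 2-cell stage, blastocyst lineage, lymphocyte, cumulus and granulosa, and sperm) were chosen with earlier results of these data known. Some AKT pathway genes are not reported here and are left out of that list's counts. Named were all members, loci within 500 kb, Akt1 and Akt2, up to 3 called genes per list and direction or the gene of smallest p, and the 8 genes of nearest profile. Promoter sequences are from RefSeq (GRCm38.p6), aligned locally with Biopython 1.88, and motifs were chosen after the sequences were seen.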

Additional observations from a re-analysis of the deposited data

How the results depend on the processing

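The count of cluster genes called stayed at 0 of 6 in all 14 alternatives of each 2-cell comparison and at 0 of 1 in all 12 for blastocysts, and the fall of Tcl1 between stages kept its call in all 12. The 2-cell differences had directions that moved. For sIVF against IVF, Tcl1 turned to −0.021 after quantile normalization and −0.029 after upper-quartile scaling, and Tcl1b1 to −0.0054 after quantile normalization. With each library left out in turn, Tcl1 ranged from −0.55 to 0.67, Tcl1b1 from −0.34 to 0.53 and Tcl1b4 from −0.62 to 2.03 in that comparison. For IVF against WT, Tcl1 ranged from −0.078 to 1.14, Tcl1b4 from −0.33 to 2.32 and Tcl1b5 from −0.88 to 0.31, and for sIVF against WT, Tcl1b3 from −0.084 to 0.59. The cause was not tested.

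Over all tested loci, same-numbered 2-cell libraries did not deviate together (correlations −0.003, 0.074 and −0.002). Tcl1 and Tcl1b4 nevertheless had replicate 1 above replicate 2 in WT, sIVF and IVF, while the other cluster genes kept no such order. Whether same-numbered libraries share a batch was not tested. With a replicate block Tcl1 differed by 0.53 between IVF and WT (adjusted p 0.460) and by −0.31 between Fzr1-OE and Control (0.426), and the loci passing in the latter went from 397 to 47. Over all alternatives the loci passing numbered 0 to 21 for IVF against WT, 0 to 32 for sIVF against IVF, and 0 to 452 for blastocysts. Each 2-cell group held only 2 libraries, and the levels of Tcl1b4 and Tcl1b5 rested on as few as 32.7 and 39.8 implied fragments.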
